A study of Homo sapiens with 6 samples.

Results

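NTS, the gene of the peptide neurotensin, and the receptor genes NTSR1, NTSR2 and SORT1 were followed in human UMUC3-c31 bladder cancer cells with and without the synthetic androgen R1881. The members were all probe sets that the platform annotation maps to a single gene of this group, which gave 3 of the 18129 genes tested and 4 of the 49193 probe sets in the table: 2 for NTS, 1 for NTSR1 and 1 for NTSR2. SORT1 was not analysed here. The group was selected on the fall of NTS with R1881, the largest of any gene in this same comparison, so the differences of its members are given as a description and carry no test.

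All 6 samples were cultures of UMUC3-c31. Per the labels' protocols, every culture was held for 24 h in charcoal-stripped serum, which is poor in steroids, and then treated for 24 h before total RNA was isolated. The vehicle group (n = 3) received ethanol and the R1881 group (n = 3) received 10 nM R1881, and the design text calls the samples of each group biological replicates. The sources used here do not say how c31 was made from its parent line or whether it is a single clone. In a principal component analysis of all genes the groups were apart on the first component, and vehicle replicate 1 was apart on the second (a score of 11.04, beside -8.21 and -6.99 for the other vehicle arrays), where R1881 replicate 1 also stood on its side (5.69, beside -0.67 and -0.87). Without vehicle replicate 1 the NTS differences described below were -1.78 and -1.46, and the NTSR1 difference was -0.605.

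Neurotensin is a short peptide hormone and neurotransmitter, cut from a larger precursor that also holds the related peptide neuromedin N. It acts mainly through NTSR1, a high-affinity receptor coupled to Gq proteins, which activates phospholipase C, releases calcium through inositol trisphosphate receptors and engages protein kinase C and the ERK pathway. NTSR2 is a receptor of lower affinity found mostly in the nervous system, and SORT1 encodes sortilin, a sorting receptor that also binds neurotensin. In epithelial tumours the peptide and NTSR1 are studied as an autocrine pair, that is, a ligand and receptor made by the same cell.

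The windows of 250 bases before the RefSeq gene starts of NTS and NTSR1 (build GRCh38.p14, both on the plus strand) are shown because these are the members whose transcripts were lower together. Capitals mark matches to the motifs named after them. The NTS window is chr12:85874045-85874294 and the NTSR1 window is chr20:62708586-62708835.
NTS: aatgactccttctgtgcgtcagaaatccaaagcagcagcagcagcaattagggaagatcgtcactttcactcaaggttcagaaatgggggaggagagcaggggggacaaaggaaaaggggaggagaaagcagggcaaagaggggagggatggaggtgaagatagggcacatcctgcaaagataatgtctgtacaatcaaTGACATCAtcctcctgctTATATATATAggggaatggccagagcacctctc
NTSR1: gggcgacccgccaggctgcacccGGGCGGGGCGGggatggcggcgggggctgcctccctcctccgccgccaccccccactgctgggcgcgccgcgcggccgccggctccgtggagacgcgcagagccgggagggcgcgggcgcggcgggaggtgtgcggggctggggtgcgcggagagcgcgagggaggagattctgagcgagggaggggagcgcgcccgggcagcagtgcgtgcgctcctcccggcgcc

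The letters of these windows differ widely. The NTS window had a GC content of 49.2% and the NTSR1 window of 82%, against a median of 58% over 34788 different windows of this length. Both strands were searched. The NTS window held 1 match to TGACNTCA, a pattern that includes the cyclic AMP response element TGACGTCA, starting 51 bases before the gene start, and 3 overlapping matches to TATATA, the first starting 33 bases before it. Of all windows, 6.84% held TGACNTCA and 3.76% held TATATA. The NTSR1 window held neither and had 2 overlapping matches to the GC box GGGCGG, which was found in 42.6% of all windows. Neither window held the AP-1 pattern TGANTCA (6.59% of all windows), the exact element TGACGTCA (1.64%) or AGAACA, a core of androgen and glucocorticoid receptor elements (12.4%).

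NTS, the ligand, was lower with R1881 on both of its probe sets. On the brighter one, 11719684_a_at, the deposited log2 values were 6.61, 6.46 and 6.42 on the vehicle arrays and 4.49, 4.66 and 4.83 on the R1881 arrays. The groups were separated by a gap of 1.59, several times the range within either group. The mean level was 6.50 ± 0.10 (SD, n = 3) with vehicle and 4.66 ± 0.17 (SD, n = 3) with R1881, which is a log2 difference of -1.84 ± 0.10 (SE of the moderated linear fit).

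The second NTS probe set, 11719685_at, read 5.89, 5.79 and 5.83 with vehicle and 4.43, 4.26 and 4.36 with R1881. The groups lay 1.36 apart, and the mean went from 5.84 ± 0.05 to 4.35 ± 0.09 (SD, n = 3), a log2 difference of -1.49 ± 0.06 (SE). These were the lowest and the second lowest differences of all 44898 probe sets with 1 gene symbol. The sets share a target transcript and were read on the same arrays, so they are not independent measurements of the culture. They ordered the R1881 arrays differently: replicate 1 was lowest on the brighter set and highest on the other.

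A background level of 4.99 (log2) was taken from the 90th percentile of 423 olfactory receptor and keratin-associated protein genes, which are hardly expressed outside their own tissues. Every vehicle array lay above this level for NTS and every R1881 array lay below it, on both sets. The size of the fall is therefore a lower bound, at least 2.84-fold on the brighter set and at least 1.80-fold on the other. Whether any NTS transcript remained with R1881 cannot be read from these values. In RNA of whole cultures, fewer NTS-expressing cells and less NTS RNA per cell cannot be told apart.

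**Figure D1:**
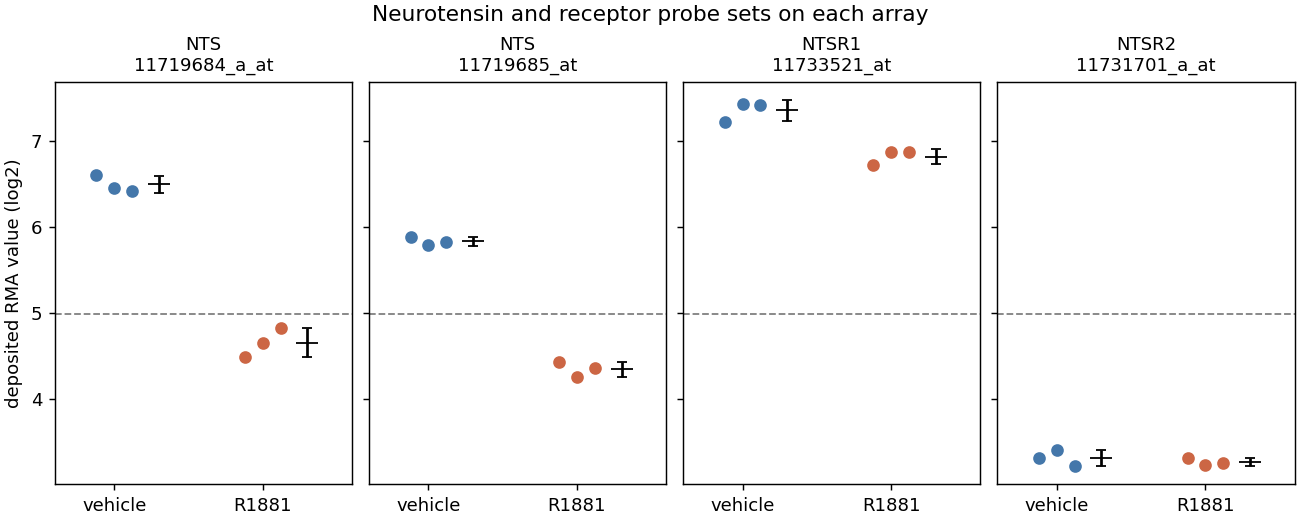
Deposited log2 RMA values of the 4 probe sets on each array, with vehicle in blue and R1881 in orange, and black bars for the mean ± SD of 3 arrays. The dashed line is the background level of 4.99. The NTS points cross this line between groups, the NTSR1 points stay above it with a gap of 0.35 between groups, and the NTSR2 points stay below it and overlap.

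NTSR1, the main signalling receptor, was also lower with R1881, by less. Probe set 11733521_at read 7.22, 7.43 and 7.42 on the vehicle arrays and 6.72, 6.87 and 6.87 on the R1881 arrays. The groups did not overlap, the lowest vehicle array being 0.35 above the highest R1881 arrays, and replicate 1 was the lowest of its group in both. The mean went from 7.36 ± 0.12 to 6.82 ± 0.09 (SD, n = 3). The difference was -0.54 ± 0.08 (SE), which leaves 0.689 of the vehicle level. All 6 arrays lay above background, so unlike that of NTS this is a measured fold and not a bound.

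Among 18129 genes, each represented by its brightest probe set, 28 had a lower difference than NTSR1 and none had a lower one than NTS. NTSR2, the receptor of low affinity, lay below background on every array, at 3.32, 3.41 and 3.23 with vehicle and 3.32, 3.24 and 3.26 with R1881. Its groups overlapped, with a difference of -0.05 ± 0.06 (SE), and no fold is given for it.

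In the limma fit over all 44898 probe sets, 3 of the 4 member probe sets (both of NTS, and NTSR1) were past an adjusted p of 0.05 with a lower level, where 0.468% of all probe sets were. Either way, 1.61% of probe sets passed. Every R1881 array lay below every vehicle array on the same 3, as on 9.21% of all probe sets. With each array left out in turn, both NTS sets stayed past that threshold all 6 times. NTSR1 did so 1 time, without vehicle replicate 1. The leave-outs called 284 to 399 of all probe sets, against 722 with all arrays. Because this contrast chose the members, nothing is read from these counts.

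**Figure D2:**
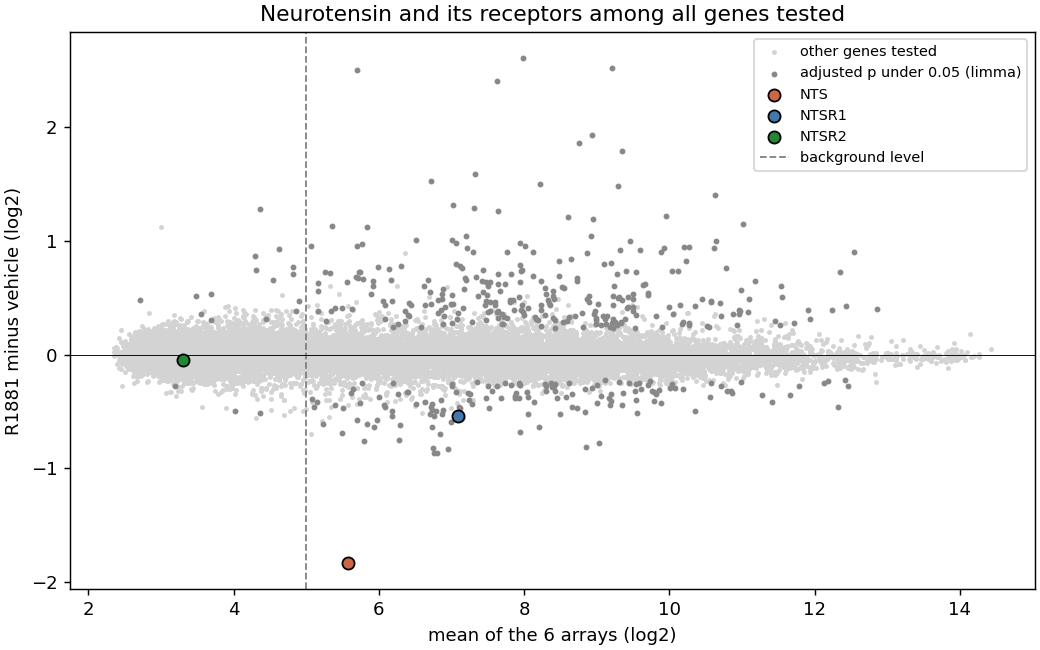
Difference between R1881 and vehicle (log2) against the mean of the 6 arrays (log2) for 18129 genes, with genes past an adjusted p of 0.05 in dark grey and the background level as a dashed line. NTS stands alone at -1.84, NTSR1 lies among the larger falls at -0.54 and NTSR2 lies near 0 at a level below background.

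Array medians lay between 5.49 and 5.51 over all probe sets, and in no pair of arrays did more than 9.02% of the probe sets have equal values. FKBP5, a cochaperone that androgen commonly induces, rose by 1.49 ± 0.05 (SE; limma adjusted p = 3.22e-05), from 8.58, 8.48 and 8.60 to 10.07, 10.01 and 10.04. Of 12 urothelial and epithelial markers 5 lay above background in at least 1 group, among them KRT18 and KRT8. The others above it were KRT7, UPK1A (5.03 with vehicle and 5.08 with R1881) and GATA3 (4.91 and 5.02). UPK1B, UPK2, UPK3A, EPCAM and CDH1 were among the 7 below it, while VIM, a mesenchymal marker, averaged 14.10 with vehicle. KRT7 rose by 0.40 ± 0.06 (adjusted p = 0.0192), KRT18 fell by 0.37 ± 0.05 (adjusted p = 0.00830) and CD44 by 0.28 ± 0.05 (adjusted p = 0.0468). Of 7 immune and endothelial markers none passed the test (limma, 2 at an unadjusted p under 0.05, as were 14.3% of all genes). Above background in at least 1 group were 3: CD68 (8.93 with vehicle and 8.69 with R1881), VWF (5.07 and 5.13) and CD3E (4.83 and 5.02). PTPRC, the pan-leukocyte marker, lay below it and averaged 3.00 and 2.93.

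Neurotensin is made by neuroendocrine cells, so markers of that cell type were set beside NTS. None of 10 measured markers passed the limma test over all genes, with 2 at an unadjusted p under 0.05, and 6 lay above background. The log2 values of the 10 summed to between 55.67 and 56.05 on the vehicle arrays and between 55.79 and 56.25 on the R1881 arrays, which overlap. CHGA, the granule protein chromogranin A, lay below background in both groups, at 3.48 and 3.57, as did SCG2, SCG3 and INSM1. Highest of the 6 above it were UCHL1 (11.92 with vehicle and 11.84 with R1881), ENO2 (8.86 and 9.15) and SYP (7.23 and 7.25). DDC (5.49 and 5.20), NCAM1 (5.21 and 5.35) and CHGB (5.05 and 5.14) lay closer to it. ENO2, neuron-specific enolase, stood at 0.29 ± 0.06 (adjusted p = 0.0793) and DDC, an enzyme of amine synthesis, at -0.29 ± 0.09 (adjusted p = 0.202), on opposite sides of 0.

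NTS was also set beside the precursor genes of other neuropeptides. Of 24 measured, 2 lay above background in at least 1 group, and none passed the test (limma, 2 at an unadjusted p under 0.05). Those above background were UCN (urocortin, 5.63 with vehicle and 5.53 with R1881) and HCRT (orexin, 5.53 and 5.61), close to the level of 4.99. That level is a 90th percentile, so some genes taken as unexpressed also lie above it. The median difference of the 24 was 0.03, beside 0 over all genes. The smallest p belonged to NMU, NMS and ADCYAP1, all below background: NMU stood at 0.43 ± 0.13 (adjusted p = 0.203), NMS at 0.29 ± 0.10 (adjusted p = 0.233) and ADCYAP1 at -0.27 ± 0.13 (adjusted p = 0.409).

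Over 8 pathway lists, 93 of 103 genes were measured, and 61 of these exceeded the background level with vehicle or with R1881. By limma 5 rose and 2 fell, and 86 did not pass. Leaving out vehicle replicates 1, 2 and 3 in turn left 3, 2 and 1 that rose, leaving out R1881 replicates 1, 2 and 3 left 1, 1 and 3, and the replicate number as a block left 2, while the number that fell was 2 each time. Over all genes the same leave-outs called 152 to 198 higher and 53 to 72 lower, against 290 and 148 with all arrays, and the block 170 and 52. Over all genes tested 1.6% rose and 0.816% fell, and 3.86% of the 11049 genes above background were called in either direction. An unadjusted p under 0.05 was found for 18 of the 93 genes and for 14.3% of all genes.

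Measured genes of precursor processing and of peptide degradation gave no call. Only 4 of 6 listed precursor-processing genes were measured, and the convertases PCSK1 and PCSK2 were not among them. None of the 4 passed the limma test and none had an unadjusted p under 0.05. CPE, carboxypeptidase E, and PCSK5, a proprotein convertase, lay below background at 3.13 and 2.99 with vehicle, as did SCG5. PCSK1N, an inhibitor of a convertase, was above background at 5.84 and 5.92, a difference of 0.08 ± 0.05 (adjusted p = 0.540). The median difference of the 4 was 0.08.

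All 6 peptidases that cleave neurotensin or related peptides lay above background in at least 1 group, and none passed the limma test (1 at an unadjusted p under 0.05). MME, neprilysin, read 10.85, 10.79 and 10.88 with vehicle and 10.98, 11.01 and 10.94 with R1881. Its groups did not overlap, and the difference of 0.14 ± 0.05 had an adjusted p of 0.249. NLN, neurolysin, and THOP1, thimet oligopeptidase, which cut the peptide inside its sequence, differed by -0.01 ± 0.05 and 0.00 ± 0.04 (adjusted p = 0.920 and 0.982). PREP stood at -0.10 ± 0.06 and ACE at -0.05 ± 0.09 (adjusted p = 0.516 and 0.818), and the list's median was -0.01.

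Of 21 measured genes of the signalling chain below NTSR1, 2 rose, 19 did not pass and none fell. By limma 7 had an unadjusted p under 0.05 (33.3%, beside 14.3% of all genes), and the median difference was 0.10. Above background were 20 of the 21, but only 11049 of the 18129 genes behind the 14.3%, so these sets differ in level. ITPR1, an inositol trisphosphate receptor that releases stored calcium, read 7.57, 7.77 and 7.53 with vehicle and 8.36, 8.27 and 8.15 with R1881. The groups did not overlap, and the rise was 0.64 ± 0.08, or 1.55-fold (adjusted p = 0.00994). Its 3 probe sets were higher by 0.39 to 0.64, and 2 of them passed when all probe sets were tested. The call ended without vehicle replicate 1 (adjusted p = 0.0606) or 3 (0.0556) and without R1881 replicate 1 (0.0576) or 2 (0.0679). It also ended on the probe set whose identifier has no s or x, at 0.39 with an adjusted p of 0.137. That set lay near background, at 4.90 with vehicle and 5.29 with R1881.

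PRKCA, a protein kinase C that calcium and diacylglycerol activate, read 10.64, 10.73 and 10.74 with vehicle and 11.10, 11.04 and 11.03 with R1881. It rose by 0.35 ± 0.05, or 1.28-fold (adjusted p = 0.0127), with 3 of 3 probe sets higher by 0.14 to 0.35. It kept the call without vehicle replicate 1 (adjusted p = 0.0410), and in the other leave-outs its adjusted p was 0.0536 and 0.0517 without vehicle replicates 2 and 3 and 0.0625, 0.0647 and 0.0555 without R1881 replicates 1, 2 and 3. With the replicate number as a block it was 0.0837.

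Neighbouring members did not pass: ITPR2 stood at 0.43 ± 0.10 (adjusted p = 0.110), PRKCD at 0.32 ± 0.08 (adjusted p = 0.103) and ARRB1, an arrestin that uncouples receptors, at 0.34 ± 0.10 (adjusted p = 0.191). The Gq genes GNAQ and GNA11 differed by 0.04 ± 0.05 and 0.10 ± 0.07, and PLCB1, a phospholipase C, by -0.14 ± 0.05 (adjusted p = 0.273). PLCB2, PLCB3 and PLCB4, of the same family, were on the other side of 0. They stood at 0.17 ± 0.07, 0.06 ± 0.07 and 0.11 ± 0.05 (limma adjusted p = 0.342, 0.731 and 0.395). EGFR, through which neurotensin receptors can act on ERK, stood at 0.11 ± 0.05 (adjusted p = 0.384).

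The next list held 12 measured transcripts that neurotensin signalling is known to act on, or that mark ERK and EGFR ligand output. Of these 2 rose, 2 fell and 8 did not pass, with a median difference of -0.02. Over all genes 1.6% rose and 0.816% fell. By limma 6 of the 12 had an unadjusted p under 0.05 (50%, beside 14.3% of all genes), and 11 of the 12 lay above background. The list was chosen with earlier results of these data known, so these shares are a description. The ligands of the EGFR family moved in opposite directions. HBEGF read 9.23, 9.25 and 9.31 with vehicle and 8.43, 8.44 and 8.47 with R1881, a fall of 0.82 ± 0.04 (adjusted p = 2.25e-04), and both of its probe sets passed. EREG, epiregulin, read 8.34, 8.23 and 8.26 and then 7.62, 7.70 and 7.48, and fell by 0.68 ± 0.07 (adjusted p = 0.00335). Of its 4 probe sets 2 lay above background, and these 2 passed; averaged with the dim ones EREG stood at -0.35 with an adjusted p of 0.102.

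TGFA, transforming growth factor alpha, read 5.53, 5.41 and 5.40 with vehicle and 6.02, 6.13 and 6.18 with R1881. It rose by 0.66 ± 0.06, or 1.58-fold (adjusted p = 0.00250), on the only 1 of its 4 probe sets above background. The others differed by 0.03 to 0.10, and the mean of all 4 stood at 0.21 with an adjusted p of 0.0544.

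CXCL8, the chemokine interleukin 8, read 8.79, 8.54 and 8.65 with vehicle and 9.09, 9.11 and 9.16 with R1881. It rose by 0.46 ± 0.07, or 1.38-fold (adjusted p = 0.0189), and all 3 of its probe sets passed when all probe sets were tested. It kept its gene-level call without vehicle replicate 1 (adjusted p = 0.0174). The adjusted p was 0.0550 and 0.0947 without vehicle replicates 2 and 3, 0.0819, 0.0945 and 0.0976 without R1881 replicates 1, 2 and 3, and 0.0702 with the replicate block. Among the rest, EGR1 stood at -0.39 ± 0.12 (adjusted p = 0.196), DUSP6, a phosphatase that ERK induces, at -0.23 ± 0.05 (adjusted p = 0.0777) and CCND1 at -0.10 ± 0.05 (adjusted p = 0.382).

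**Figure D3:**
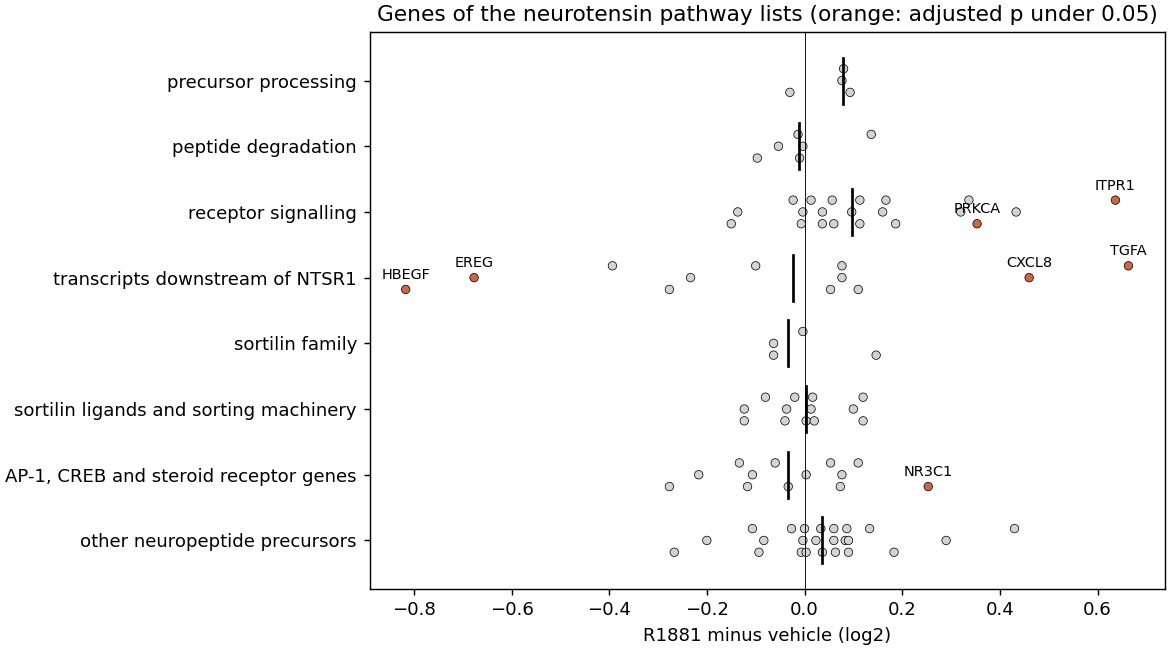
Difference between R1881 and vehicle (log2) for each measured gene of the 8 pathway lists, 1 point per gene and list, with a black bar at each list's median and orange points for genes past an adjusted p of 0.05. The 7 genes called lie in 3 lists, at the 2 extremes of the transcripts downstream of NTSR1, on the high side of receptor signalling, and at NR3C1.

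The relatives and partners of sortilin gave no call. Of 4 other genes of the family, SORL1 and SORCS2 lay above background. SORL1 read 9.14, 9.35 and 9.42 with vehicle and 9.42, 9.46 and 9.47 with R1881, a difference of 0.15 ± 0.08 (adjusted p = 0.434), and SORCS2 stood at -0.06 ± 0.05 (adjusted p = 0.590). SORCS1 differed by -0.06 ± 0.11 below background (adjusted p = 0.822), and none of the 4 had an unadjusted p under 0.05 by limma. Of 13 measured ligands and sorting proteins, which include GRN (progranulin), the retromer subunits and the GGA adaptors, none passed and none had an unadjusted p under 0.05 by limma. Their median difference was 0.00, with GGA2 at -0.12 ± 0.06, GGA1 at 0.12 ± 0.06 and VPS26A at -0.08 ± 0.05 (adjusted p = 0.423, 0.439 and 0.519).

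Of 13 measured AP-1, CREB and steroid receptor genes 1 rose and none fell, with a median difference of -0.03. NR3C1, the glucocorticoid receptor, read 10.34, 10.39 and 10.43 with vehicle and 10.61, 10.62 and 10.69 with R1881, a rise of 0.25 ± 0.05 (adjusted p = 0.0462). All 10 of its probe sets were higher, by 0.24 to 0.37, and 4 passed when all probe sets were tested. The call ended with any 1 array left out, at an adjusted p of 0.124, 0.142 and 0.111 without vehicle replicates 1, 2 and 3 and of 0.114, 0.140 and 0.148 without R1881 replicates 1, 2 and 3. It also ended with re-centred arrays (0.0530) and with the replicate block (0.106). CREB1, which binds cyclic AMP response elements, stood at -0.22 ± 0.07 (adjusted p = 0.230) and ATF2 at -0.12 ± 0.05 (adjusted p = 0.382). JUN and FOS, the AP-1 subunits, differed by 0.05 ± 0.05 and 0.08 ± 0.05 (adjusted p = 0.646 and 0.560).

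The genes whose pattern was most like that of NTS were sought by Pearson correlation with 11719684_a_at over the 6 arrays, among 10854 named genes above background in at least 1 group. The 5 highest were PDAP1 (r = 0.9999), STK17A (0.998), FHL2 (0.997), KCNN4 (0.996) and RGS4 (0.996). The correlation reads shape and not size, and any gene with a clean step between the groups scores high, so it is a description over 6 arrays that share the 2 treatments. The R1881 values of NTS that enter it lie below background.

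The sizes differed widely. RGS4, which shortens signalling by Gq and Gi proteins, read 9.56, 9.58 and 9.55 with vehicle and 9.06, 9.14 and 9.16 with R1881, a difference of -0.44 ± 0.05, and its 4 probe sets were lower by 0.38 to 0.44. KCNN4, a potassium channel opened by calcium, read 8.80, 8.70 and 8.76 and then 8.20, 8.23 and 8.27, a difference of -0.52 ± 0.05. STK17A, a kinase related to the death-associated kinases, differed by -0.49 ± 0.05 and FHL2, a LIM domain cofactor, by -0.32 ± 0.04. PDAP1 had the highest correlation with a difference of only -0.10 ± 0.04, which did not pass the limma test (adjusted p = 0.298). It read 10.90, 10.89 and 10.89 with vehicle and 10.78, 10.79 and 10.80 with R1881. Its spread within groups was thus near the rounding of the values to 2 decimals. The other 2 probe sets of PDAP1 differed by -0.03 and -0.02. NTSR1 itself had r = 0.948 with NTS and NTSR2 had r = 0.355.

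**Figure D4:**
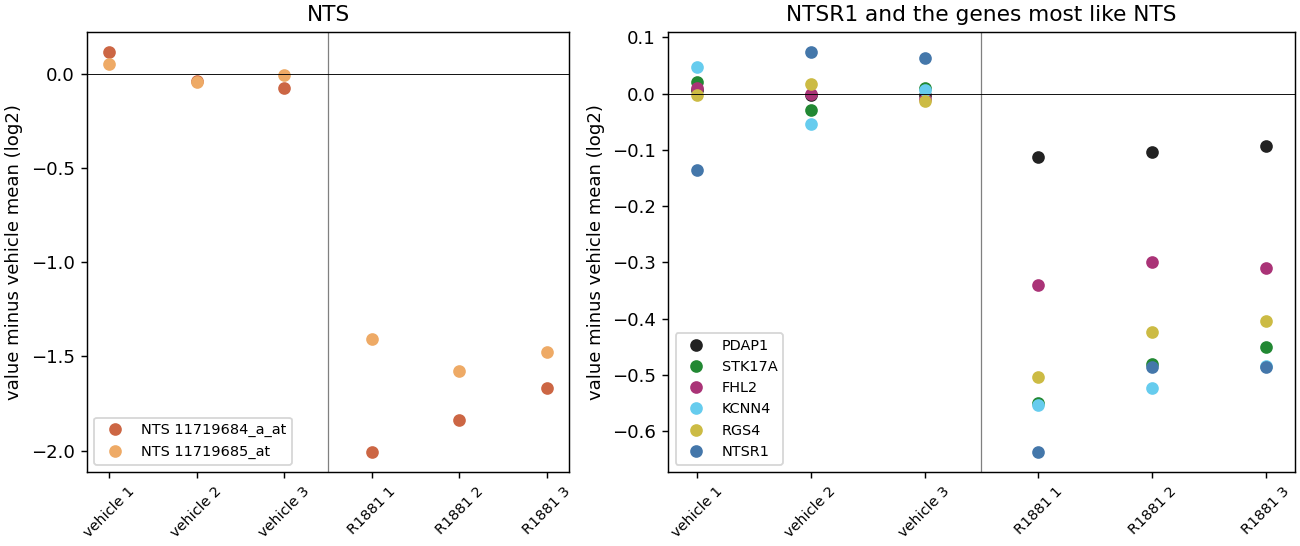
Values of each array minus the mean of the vehicle arrays (log2), for the 2 NTS probe sets at left and for NTSR1 and the 5 genes most like NTS at right, on axes of different range. NTS drops to well below -1 on every R1881 array, whereas NTSR1, STK17A, KCNN4 and RGS4 lie near -0.5, FHL2 near -0.3 and PDAP1 near -0.1.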

How the data were processed

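Total RNA of 6 cultures was hybridised to Affymetrix arrays, 1 per sample. The deposited values are log2. The submitters' processing notes name RMA as the authors' method (background correction, quantile normalization, summary per probe set), rounded to 2 decimals. RMA would remove a shift of the whole transcriptome. Detection calls were not used here, and 3 arrays per group limit the precision.

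Probe sets were named by the platform annotation: 44898 had 1 symbol, 1825 several and 2470 none listed. Members were fitted over the 44898, and lists over 18129 genes by their brightest probe set, with limma 3.58.1 in R 4.3.3 (lmFit, eBayes, two-sided, Benjamini-Hochberg over all, threshold 0.05). SE are of the moderated fit. The fit was tested on simulated data. Named were the members, FKBP5, called list genes, the 3 smallest p per list and the 5 genes most like NTS; others, in marker lists and beside called genes, were picked with their values in view. The members and lists were chosen with earlier results of these data known, and the motifs with the windows in view. Of 146 list entries 132 were measured. Of the 128 distinct genes, 45 were read on sets with s or x before "_at", whose probes can match relatives. P-values measure the spread between these samples. Promoter windows are RefSeq's (GRCh38.p14). Alternatives were re-centring, repeated quantile normalization, other priors, array weights, a replicate block, dim filters, other probe set rules and leaving out arrays. Same-numbered arrays had deviations correlated at 0.03 to 0.09. The main fit did not take the numbers as pairs, though these values cannot show that the arrays were unpaired.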

Additional observations from a re-analysis of the deposited data

How the results depend on the processing

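The NTS differences were -1.92 to -1.75 (11719684_a_at) and -1.53 to -1.44 (11719685_at) when arrays were left out in turn, NTSR1 was -0.605 to -0.49 and NTSR2 -0.09 to 0.00. Averaging the 2 NTS sets gave -1.66, which by construction lies between them. No other alternative moved a member by more than its replicate SD. The other priors, the replicate block and the dim filters cannot change these differences. Leaving out 1 array of a group of 3 can only move its mean by less than that SD. For these settings the outcome was fixed in advance, and nothing is read from it. The 5 pathway list genes that rose became 2 with the replicate block and 1 to 3 without 1 array, while the 2 that fell stayed 2 in each of these, and became 1 when probe sets of a gene were averaged. The block and the leave-outs also called fewer of all genes. In the check of numbering, 6 of 6 arrays correlated best with their own number, a hint from the data and not the design. A trended, robust prior called 475 higher and 420 lower, and leaving out dim genes 423 and 334; the cause was not tested. Signal near background limits NTS with R1881, NTSR2 and most neuropeptide genes.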
